A study of Homo sapiens with 9 samples.

Results

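The de novo purine synthesis enzymes are described here across oncogene-induced senescence and knockdown of ARID1B in human fibroblasts. They are 9 genes chosen by name, PPAT, GART, PFAS, PAICS, ADSL, ATIC, IMPDH1, IMPDH2 and GMPS, out of 18417 genes for which an array probe set maps to exactly 1 gene symbol. Each of the 9 had exactly 1 such probe set, and all 9 were tested. RNA levels were measured on 9 whole-transcript arrays in 3 groups of 3, using IMR90 human lung fibroblasts (spelled IRM90 in the labels) that carry ER:RAS. ER:RAS joins oncogenic RAS to the hormone-binding domain of an oestrogen receptor, so that 4-hydroxytamoxifen (4OHT) switches it on. The shARID1B+4OHT cells expressed a short hairpin RNA against ARID1B, which encodes a SWI/SNF chromatin remodelling subunit, and received 100 nM 4OHT. The vector+4OHT cells carried an empty vector and received the same dose, and they are labelled senescent. The vector-4OHT cells carried the empty vector, received no 4OHT and are labelled non-senescent. All 3 groups were grown for 7 days in DMEM with FBS and are marked as day 6 after 4OHT, the vector-4OHT group included.

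Several contrasts are missing from this design. No group carried a control hairpin, none combined the ARID1B hairpin with the absence of 4OHT, and none received 4OHT without ER:RAS, so that effects of the drug and of RAS cannot be told apart. The labels do not say which hairpin was used or how many. The study calls the arrays biological replicates, but neither it nor the labels say whether they came from separate cultures, so the p-values cover no more than the spread among these arrays, which may be technical.

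Purine nucleotides can be built from small precursors on a ribose phosphate. The route runs in a fixed order from phosphoribosyl pyrophosphate (PRPP) to inosine monophosphate (IMP), drawing nitrogen from glutamine, glycine and aspartate and carbon from formyl groups carried by folate. IMP is then turned into AMP or GMP. In dividing cells the route supplies DNA and RNA precursors, and it is subject to feedback control by its end products. Enzyme activity was not measured, and an RNA level does not give the flow through the pathway.

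Values are log2 expression as deposited after robust multi-array averaging (RMA), so a difference of 1 is a doubling of signal, and levels of different probe sets were not set against each other. A gene was called changed at a limma p under 0.05 after Benjamini-Hochberg adjustment over all 18417 genes. The arrays were alike in overall signal, with medians of 6.70 to 6.79, and Pearson's r over probe sets was 0.9955 to 0.9972 for the 9 pairs within groups and 0.9874 to 0.9956 for the 27 pairs between groups. ARID1B itself was at 8.07, 7.96 and 8.13 on the shARID1B+4OHT arrays, 8.63, 8.96 and 8.77 on the vector+4OHT arrays, and 8.93, 8.85 and 8.94 on the vector-4OHT arrays. The hairpin arrays all lay below both vector groups, 39.9% lower than vector+4OHT (log2 change -0.73, adjusted p = 0.000179). All 10 fibroblast markers lay above 6.75, the median of all probe sets, in every group, while 0 of 5 leukocyte markers did, among them PTPRC and CD14. Of the endothelial markers 2 of 6 lay above it in each group, and of the epithelial markers 4 of 7 did in shARID1B+4OHT cells, 3 in vector+4OHT cells and 3 in vector-4OHT cells, with EPCAM and CDH1 below it in all and KRT19 above it in all. Markers moved too. In senescence 8 of 10 fibroblast markers were called lower (median change -0.29, DCN -1.60), beside 17.6% of all genes, and KRT19 fell by 1.10. The endothelial PECAM1 rose by 0.58, though its means stayed below 6.75, while TEK, above 6.75 in every group, fell by 0.30. With the hairpin 2 fibroblast markers were called higher and 2 lower, beside 9.63% and 6.09% of all genes. KRT19 rose there by 0.86 and CLDN4 by 0.38. Both endothelial genes turned there, TEK rising by 0.45 and PECAM1 falling by 0.28. The other 4 endothelial markers were not called in either comparison. The part of these shifts in the changes of the 9 genes was not tested. Bulk RNA cannot tell fewer cells of a type from less RNA per cell.

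In senescence, the purine synthesis genes did not move as a block. Set against vector-4OHT, vector+4OHT cells had higher PPAT, GART, IMPDH1 and GMPS and lower PFAS and ADSL, while PAICS, ATIC and IMPDH2 were not called. Changes were small, with the largest rise in PPAT at 1.27-fold and the largest fall in ADSL at 19.2%. These 6 calls among 9 genes (4 higher, 2 lower) stand beside 32.6% of all genes called in this comparison, 14.9% higher and 17.6% lower. The 2 groups of arrays did not overlap for 8 of the 9 genes, ATIC being the exception, against 40.1% of all genes. The median log2 change of the 9 genes was 0.12, against -0.01 for all genes. The methods' t-test, on the 6 compared arrays with Benjamini-Hochberg adjustment, called PFAS and ADSL lower and none of the 4 higher, at adjusted p = 0.138 for PPAT, 0.125 for GART, 0.0711 for IMPDH1 and 0.0793 for GMPS. With each array's median subtracted instead, the split among the 9 became 6 higher and 1 lower, and the share of called genes that were higher became 62.0% over all genes, against 45.8% as deposited.

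**Figure D1:**
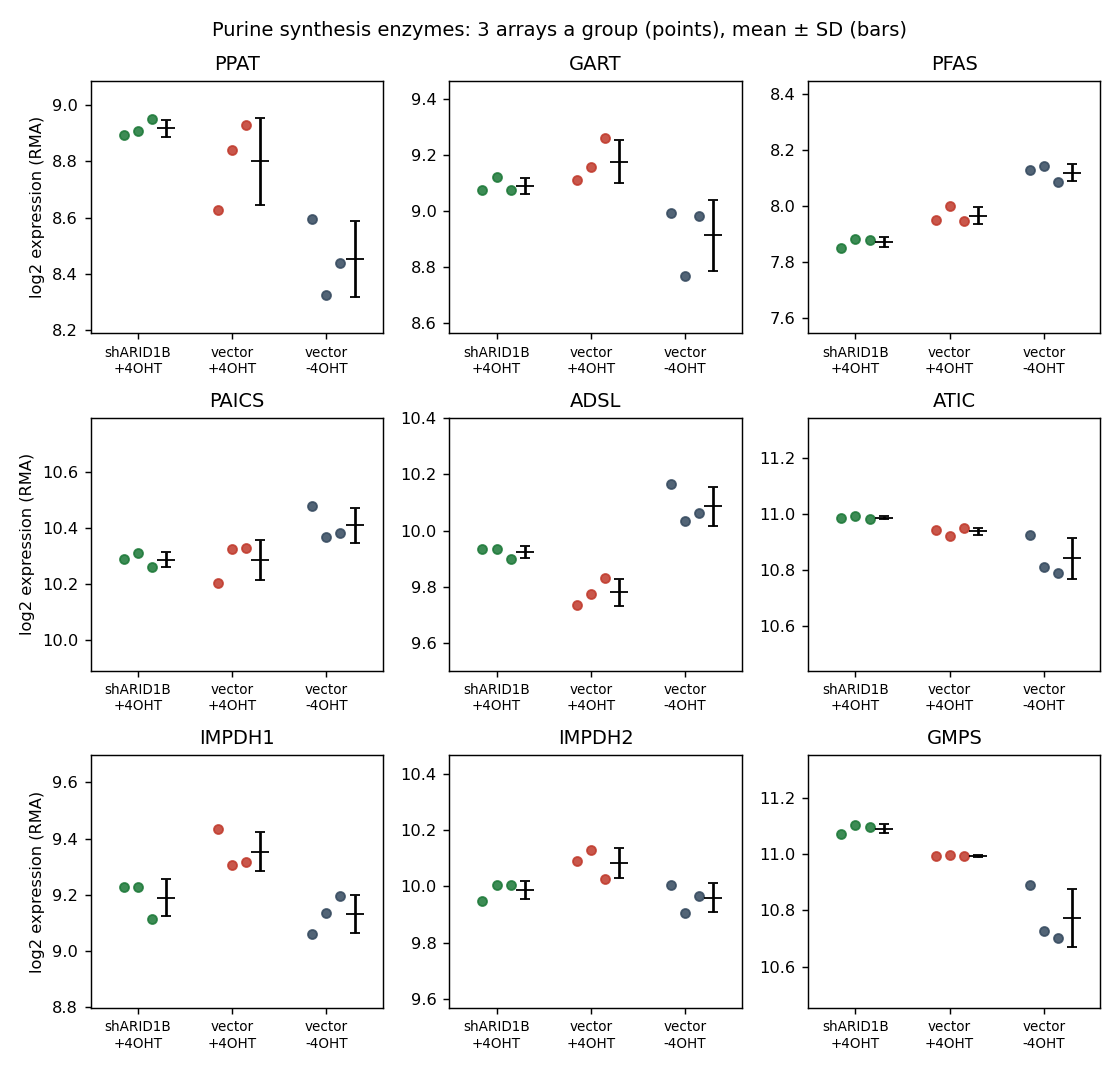
Log2 expression (RMA, vertical axes) of the 9 purine synthesis genes on the 9 arrays. Points are single arrays in replicate order, left to right shARID1B+4OHT, vector+4OHT and vector-4OHT, bars are mean ± SD (n = 3), and every panel spans the same log2 range; PPAT and GMPS are highest in the 4OHT-treated groups, PFAS and ADSL in vector-4OHT.

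The route begins with PPAT, the amidotransferase that takes nitrogen from glutamine onto PRPP in the first committed step and the main point of feedback control. PPAT was at 8.89, 8.91 and 8.95 on the shARID1B+4OHT arrays, at 8.63, 8.84 and 8.93 on the vector+4OHT arrays, and at 8.59, 8.32 and 8.44 on the vector-4OHT arrays. All 3 vector+4OHT arrays were above all vector-4OHT arrays, though vector+4OHT replicate 1 lay close to the top of the vector-4OHT range, and the shARID1B+4OHT arrays overlapped the upper part of vector+4OHT. PPAT rose by 0.35 in senescence (95% interval 0.16 to 0.54, adjusted p = 0.00861 in limma, 0.138 in the methods' t-test). The knockdown difference (shARID1B+4OHT minus vector+4OHT) was 0.12 with an interval of -0.07 to 0.31 (adjusted p = 0.409), and shARID1B+4OHT cells stayed 0.47 above vector-4OHT cells (0.28 to 0.66, adjusted p = 0.00154), or 1.38-fold, the largest departure from vector-4OHT among the 9 genes.

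PPAT lies head to head with PAICS, which encodes the bifunctional enzyme for the sixth and seventh steps. The stretch between the starts of both genes is shown because the RNAs on its sides were measured separately. In the RefSeq promoter table (GRCh38.p14) it is the 136 bases at chr4:56435616-56435751, 75.0% G or C, lying between the PPAT start at 56435615 on the minus strand and a PAICS start at 56435752 on the plus strand. Other PAICS starts are listed at 56410507 and 56436260. The stretch thus also lies inside the span of the longer transcript model that starts at 56410507. It is printed 5′ to 3′ on the plus strand, with no letters marked.
PPAT to PAICS: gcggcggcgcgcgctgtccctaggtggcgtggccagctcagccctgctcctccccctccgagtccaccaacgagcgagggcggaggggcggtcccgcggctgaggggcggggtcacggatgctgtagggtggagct

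PAICS was at 10.29, 10.31 and 10.26 on the shARID1B+4OHT arrays, at 10.20, 10.33 and 10.33 on the vector+4OHT arrays, and at 10.48, 10.37 and 10.38 on the vector-4OHT arrays. All arrays with 4OHT lay below all arrays without it, by a small margin. The senescence change was -0.12 (-0.24 to -0.0033) with an adjusted p of 0.116, and was not called. In shARID1B+4OHT cells PAICS differed from vector+4OHT by 0.0022, with an interval of -0.12 to 0.12, and its sign turned once array medians were subtracted (-0.02). Thus, the senescence intervals of PPAT and PAICS lay on opposite sides of 0, but only PPAT was called, and the difference between the neighbours was not tested because it was noticed after their values were seen. Over the 9 arrays the log2 values of PPAT and PAICS had a Pearson's r of -0.43.

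GART, which carries the second, the third and the fifth steps on 1 polypeptide, was at 9.07, 9.12 and 9.07 on the shARID1B+4OHT arrays, 9.11, 9.16 and 9.26 on the vector+4OHT arrays, and 8.99, 8.77 and 8.98 on the vector-4OHT arrays. The vector+4OHT arrays were all above the vector-4OHT arrays, where replicate 2 was lowest. GART rose by 0.26 in senescence (0.11 to 0.41, adjusted p = 0.012 in limma, 0.125 in the methods' t-test). The hairpin difference was -0.09 (-0.24 to 0.06, adjusted p = 0.449), and the difference left from vector-4OHT was 0.18 (0.02 to 0.33, adjusted p = 0.0763), short of a call.

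PFAS performs the fourth step, again using glutamine, and went the other way. Its values were 7.85, 7.88 and 7.88 on the shARID1B+4OHT arrays, 7.95, 8.00 and 7.94 on the vector+4OHT arrays, and 8.13, 8.14 and 8.09 on the vector-4OHT arrays. The 3 groups were fully separated and the SD within each was at most 0.030. PFAS was 10.1% lower in senescence (-0.15, -0.25 to -0.05, adjusted p = 0.0219). It was no longer called without vector-4OHT replicate 1 (adjusted p = 0.054), vector-4OHT replicate 2 (0.0634) or vector+4OHT replicate 3 (0.0606), or in the fit of the 6 arrays alone (0.054), and with array medians subtracted the change shrank to -0.08 (0.19). The knockdown difference was -0.10 (-0.19 to 0.0045, adjusted p = 0.199). Between shARID1B+4OHT and vector-4OHT the fall was 15.8% (-0.25, -0.35 to -0.15, adjusted p = 0.0014), and this call held in all 19 alternative analyses.

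ADSL, adenylosuccinate lyase, acts both in the eighth step and in the last step from IMP to AMP. It was at 9.94, 9.94 and 9.90 on the shARID1B+4OHT arrays, 9.74, 9.77 and 9.83 on the vector+4OHT arrays, and 10.17, 10.03 and 10.06 on the vector-4OHT arrays. The shARID1B+4OHT arrays lay between the other two groups with no overlap on either side. ADSL fell by 0.31 in senescence (-0.42 to -0.19, adjusted p = 0.000864), a call kept in all 19 alternatives. The knockdown difference was 0.14 (0.03 to 0.26, unadjusted p = 0.0199 in limma), which missed the threshold after adjustment (adjusted p = 0.0966). The difference left from vector-4OHT was -0.16 (-0.28 to -0.05, adjusted p = 0.0346), and its call was lost without any 1 of the shARID1B+4OHT arrays (adjusted p = 0.0726 to 0.111), without vector-4OHT replicate 1 (0.113) or without vector-4OHT replicate 3 (0.0563). It was also lost with the replicate block (0.0674), all probe sets (0.0549), array medians subtracted (0.15) and the methods' t-test after adjustment (0.0644), and 10 of 19 alternatives kept it.

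The last steps to IMP belong to ATIC, which adds a formyl group and closes the ring. ATIC was at 10.99, 10.99 and 10.98 on the shARID1B+4OHT arrays, 10.94, 10.92 and 10.95 on the vector+4OHT arrays, and 10.93, 10.81 and 10.79 on the vector-4OHT arrays. Vector-4OHT replicate 1 fell within the vector+4OHT range while the other two were lower. The senescence change was 0.09 (-0.02 to 0.20, adjusted p = 0.19), and the knockdown difference was 0.05 (-0.06 to 0.16, adjusted p = 0.561). ATIC was higher in shARID1B+4OHT than in vector-4OHT cells by 0.14 (0.03 to 0.25, adjusted p = 0.0491). This call stood at the threshold and was lost without vector-4OHT replicate 2 (0.134) or 3 (0.143), without vector+4OHT replicate 2 (0.0627) or 3 (0.0587), or without any 1 of the shARID1B+4OHT arrays (0.108 to 0.124). It was also lost with the replicate block (0.0833), the 6 arrays alone (0.0584), all probe sets (0.0697), robust eBayes (0.0513) and the methods' t-test after adjustment (0.0894), and 7 of 19 alternatives kept it.

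From IMP, the GMP branch starts with IMP dehydrogenase, of which IMPDH1 and IMPDH2 are separate genes for the same oxidation to XMP. IMPDH1 was at 9.23, 9.23 and 9.11 on the shARID1B+4OHT arrays, 9.43, 9.31 and 9.32 on the vector+4OHT arrays, and 9.06, 9.14 and 9.20 on the vector-4OHT arrays. The vector+4OHT arrays were above all others, and shARID1B+4OHT overlapped vector-4OHT. IMPDH1 rose by 0.22 in senescence (0.09 to 0.35, adjusted p = 0.0138), a call lost without vector-4OHT replicate 1 (adjusted p = 0.0532) and in the methods' t-test (0.0711). The knockdown difference was -0.16 (-0.29 to -0.03, unadjusted p = 0.0197 in limma, adjusted p = 0.096), and shARID1B+4OHT differed from vector-4OHT by 0.06 (-0.07 to 0.19, adjusted p = 0.501).

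IMPDH2 is the form most often linked to proliferating cells. It was at 9.95, 10.01 and 10.01 on the shARID1B+4OHT arrays, 10.09, 10.13 and 10.03 on the vector+4OHT arrays, and 10.01, 9.90 and 9.97 on the vector-4OHT arrays. Vector+4OHT arrays were again the highest, by a narrow margin over both other groups. None of its differences was called, at 0.12 in senescence (0.01 to 0.24, adjusted p = 0.0957), -0.09 in knockdown (-0.21 to 0.02, adjusted p = 0.261) and 0.03 between shARID1B+4OHT and vector-4OHT (-0.08 to 0.14, adjusted p = 0.718).

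The balance of both dehydrogenase genes was followed as IMPDH2 minus IMPDH1 within each array, a measure that needs no scaling between arrays and whose absolute value is not interpretable because the probe sets differ. It was 0.72, 0.78 and 0.89 in shARID1B+4OHT cells, 0.66, 0.82 and 0.71 in vector+4OHT cells, and 0.95, 0.77 and 0.77 in vector-4OHT cells. The 3 ranges overlapped. The mean difference was -0.10 for senescence (exact two-sided permutation p = 0.3), 0.07 for knockdown (exact p = 0.4) and -0.03 for shARID1B+4OHT against vector-4OHT (exact p = 0.7). After adjustment over the 3 comparisons the exact permutation p-values were 0.6, 0.6 and 0.7, where 3 arrays against 3 cannot give an exact p below 0.1.

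GMPS closes the branch, using glutamine to convert XMP to GMP. It was at 11.07, 11.11 and 11.10 on the shARID1B+4OHT arrays, 10.99, 11.00 and 10.99 on the vector+4OHT arrays, and 10.89, 10.73 and 10.70 on the vector-4OHT arrays. The groups formed 3 separate steps, highest with the hairpin and lowest without 4OHT. GMPS rose by 0.22 in senescence (0.10 to 0.34, adjusted p = 0.0101), or 1.17-fold, and was 1.25-fold higher in shARID1B+4OHT than in vector-4OHT cells (0.32, 0.20 to 0.44, adjusted p = 0.00114). The knockdown difference was 0.10 (-0.03 to 0.22, adjusted p = 0.29) in limma. The methods' t-test, which uses only the spread of these 6 arrays for this gene, called the knockdown difference after Benjamini-Hochberg adjustment (adjusted p = 0.0197), with an SD of 0.0026 among the vector+4OHT arrays, but not the senescence change (0.0793).

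Across the knockdown comparison, limma called 0 of the 9 genes, beside 15.7% of all genes (9.63% higher and 6.09% lower). At an unadjusted limma p under 0.05 there were 2, ADSL higher and IMPDH1 lower. The methods' t-test gave 5 unadjusted (3 higher, 2 lower) and 1 after adjustment, GMPS. The arrays of shARID1B+4OHT and vector+4OHT nonetheless did not overlap for 6 of the 9, namely PFAS, ADSL, ATIC, IMPDH1, IMPDH2 and GMPS, against 32.5% of all genes. The median change was 0.0022, against -0.02 over all genes. The widest interval was that of PPAT, and no interval of the 9 reached beyond 0.31 in either direction. Accordingly, a knockdown effect larger than that on any of these RNAs lay outside its interval.

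**Figure D2:**
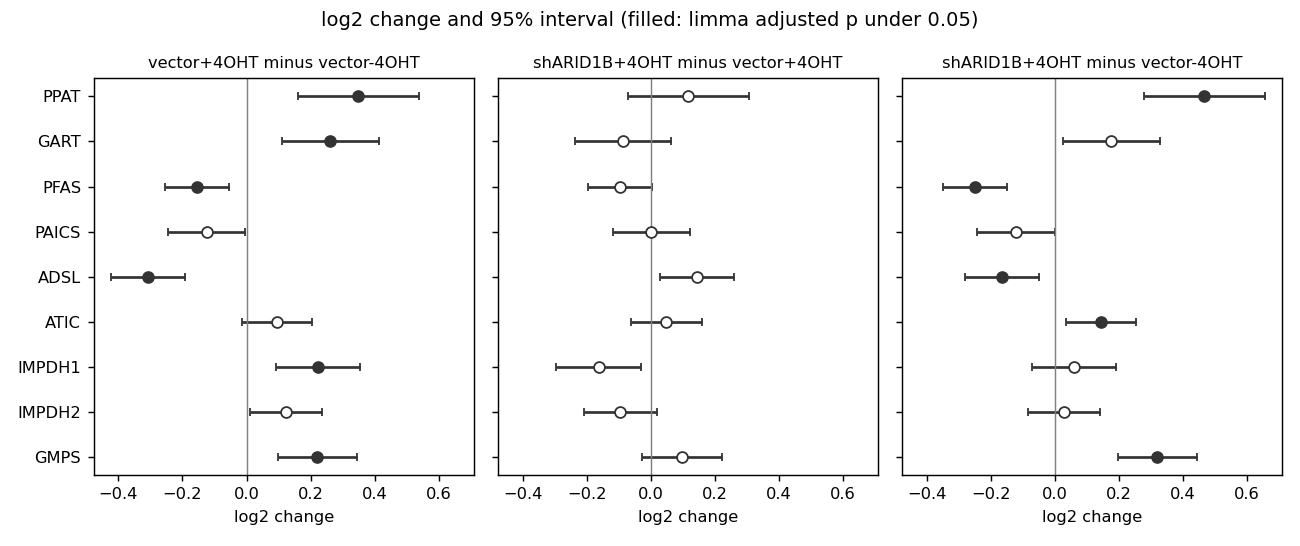
Log2 change (horizontal axes) with its 95% interval for each of the 9 genes in the 3 comparisons, from limma over 9 arrays; filled points have an adjusted p under 0.05. In senescence 6 points are filled, in knockdown 0, and between shARID1B+4OHT and vector-4OHT 5.

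Set against vector-4OHT, shARID1B+4OHT cells had 3 genes higher (PPAT, ATIC and GMPS) and 2 lower (PFAS and ADSL), with 4 not called, beside 31.5% of all genes called (15.6% higher and 15.9% lower). Arrays did not overlap for 7 of the 9, IMPDH1 and IMPDH2 being the exceptions, against 45.9% of all genes. The median change was 0.06, against -0.03 over all genes. With array medians subtracted the split among the 9 was 4 higher and 1 lower, and 61.6% of called genes were higher over all genes, against 49.4% as deposited. The senescence and knockdown comparisons share the vector+4OHT arrays, and a high or low array there moves both in opposite directions. Side by side, the senescence and knockdown changes were 0.35 and 0.12 for PPAT, 0.22 and 0.10 for GMPS, -0.15 and -0.10 for PFAS, -0.31 and 0.14 for ADSL, 0.26 and -0.09 for GART, and 0.22 and -0.16 for IMPDH1.

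Vector-4OHT replicate 1 was the highest array of its group for 7 of the 9 genes. The exceptions were PFAS and IMPDH1, and IMPDH1 was lowest there. Leaving this array out changed 3 of the calls above, those of PFAS and IMPDH1 in senescence and of ADSL between shARID1B+4OHT and vector-4OHT. Over the 9 arrays the closest pair was ATIC with GMPS (Pearson's r = 0.98), followed by PPAT with GMPS (0.93) and PPAT with ATIC (0.89). PAICS and ADSL formed another close pair (0.84). PFAS ran against GMPS (-0.89), PPAT (-0.86) and ATIC (-0.83), and ADSL against IMPDH1 (-0.85). These values are descriptive, because the 9 arrays share 3 group means and the same normalization.

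**Figure D3:**
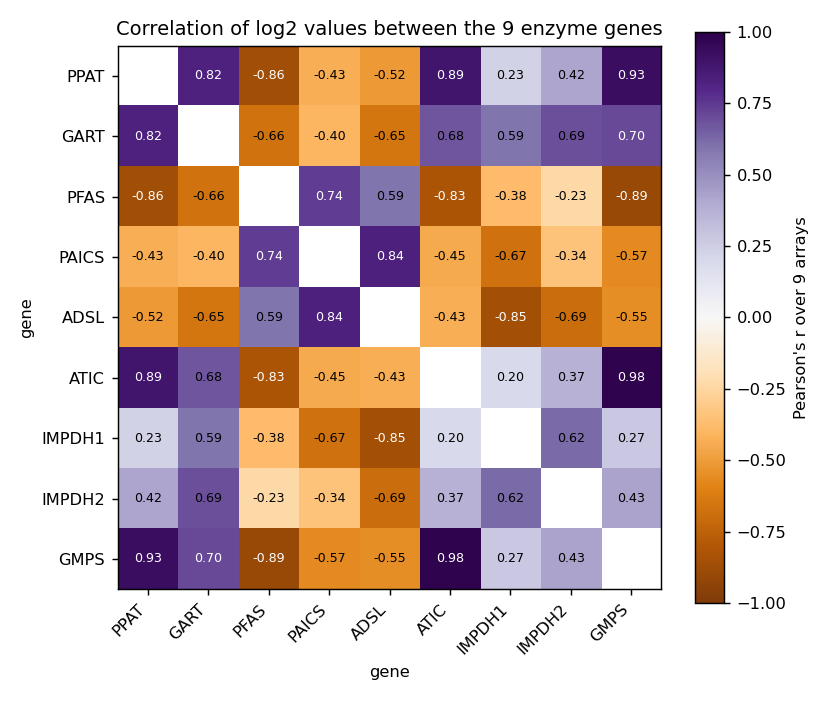
Pearson's r of log2 values over the 9 arrays for each pair of the 9 genes (both axes: genes in pathway order; colour scale: r; the diagonal is left blank). PPAT, GART, ATIC and GMPS run together, and PFAS, PAICS and ADSL form another set with positive r among themselves.

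By likeness of pattern over the 9 arrays, taken among the 7853 genes called in at least 1 comparison, the mean standardized profile of the route to IMP was nearest to MAPK10 (r = 0.75), FANCL (0.74), RP9P (0.72), AKNAD1 (0.72) and EEF1AKMT2 (0.69). The mean profile of IMPDH1, IMPDH2 and GMPS was nearest to GET3 (0.98), RGS3 (0.98), RPUSD1 (0.97), ARFIP2 (0.97) and PSMD8 (0.97). The values for the route to IMP are lower, where the 6 genes of the mean ran in opposite directions. All are the highest of 7853 values on 9 arrays, so they are high by selection and only descriptive. The senescence calls of MAPK10, FANCL, AKNAD1 and EEF1AKMT2 were lost in several alternatives. Without vector-4OHT replicate 1 their limma adjusted p was 0.112, 0.183, 0.115 and 0.087. The part of single arrays in the likeness was not tested.

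Regulatory sequence was described for the 7 genes with an entry in the promoter table, which lists 11 start sites for them. ADSL and IMPDH2 have no entry. The 250 bases before each start were searched on both strands for CACGTG, an E-box of the kind that MYC with MAX can bind, and for TGCGCA, the core of the NRF1 site. The E-box stood in 2 of the 11 windows, those of PPAT and ATIC, while 6.34% of all 35116 windows of that length hold it. TGCGCA was in 0 of the 11, against 6.89% of all windows. Some windows overlap, such as those of the GART starts at 33542892 and 33542889. PPAT and ATIC were 2 of the 3 genes higher in shARID1B+4OHT than in vector-4OHT cells, but GMPS, the third, had neither motif. The ATIC call was kept in only 7 of 19 alternatives, and a link between motif and RNA level was not tested. The E-boxes are shown as the only matches of either motif. They are printed 5′ to 3′ on the strand of the gene with the CACGTG in capitals, at chr4:56435780-56435809 on the minus strand for PPAT and at chr2:215312001-215312030 on the plus strand for ATIC (GRCh38.p14). The first base of the motif is 182 bases before the PPAT start and 46 bases before the ATIC start. The PPAT E-box thus lies between the PAICS starts at 56435752 and 56436260.
PPAT E-box: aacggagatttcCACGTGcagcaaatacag
ATIC E-box: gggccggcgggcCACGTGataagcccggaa

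Among 5 regulators linked to purine genes, only MYC was called in senescence, where 32.6% of all genes were called. MYC was at 10.29 ± 0.067 in vector+4OHT cells and 9.64 ± 0.059 in vector-4OHT cells (SD, n = 3 each). The change was 0.64 (limma adjusted p = 4.46e-06). With the hairpin MYC fell by 0.23, to 10.06 ± 0.023 (limma adjusted p = 0.0146), where 15.7% of all genes were called. That call was lost without vector+4OHT replicate 2 (0.0577) or shARID1B+4OHT replicate 3 (0.0615). The methods' t-test after adjustment lost it too (0.0569). MAX, MYCN, ATF4 and NRF1 were not called in any comparison.

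Around the pathway, 4 genes supply its substrate PRPP. Of these, 0 were higher and 1 was lower in senescence (32.6% of all genes called), and 3 were higher and 0 lower with the hairpin (15.7%). The synthetase PRPS1 fell by 0.61 in senescence (10.69 in vector+4OHT, 11.30 in vector-4OHT, adjusted p = 1.43e-05), and its knockdown difference was -0.14 (adjusted p = 0.162). The other synthetase, PRPS2, was higher with the hairpin by 0.52 (9.90 in shARID1B+4OHT, 9.38 in vector+4OHT, adjusted p = 0.000536). The synthetase-associated proteins PRPSAP1 and PRPSAP2 were higher by 0.36 (adjusted p = 0.00692) and 0.25 (adjusted p = 0.00737).

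Of 6 measured genes for formyl group supply, 2 were higher and 2 lower in senescence (32.6% of all genes called), and 1 was higher with the hairpin (15.7%). SHMT2, the mitochondrial serine hydroxymethyltransferase, rose by 0.35 in senescence (adjusted p = 0.000322), while MTHFD2L (0.40, adjusted p = 0.00176) and SHMT1 (-0.42, adjusted p = 0.00217) had means below the median of all probe sets in both groups. MTHFD2, a mitochondrial folate dehydrogenase, rose by 0.45 with the hairpin (10.35 in shARID1B+4OHT, 9.90 in vector+4OHT, adjusted p = 0.000642). For the AMP branch, only ADSS1 was measured, and it was not called in any comparison.

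Purines are also reused from nucleosides and bases. Of 7 salvage genes 3 rose and 1 fell in senescence (32.6% of all genes called), and 1 rose and 1 fell with the hairpin (15.7%). PNP, which splits purine nucleosides, averaged 10.11 in vector+4OHT and 8.19 in vector-4OHT cells, a 3.78-fold rise (adjusted p = 1.58e-08), and with the hairpin it fell by 0.35 (adjusted p = 0.00934). MTAP, which recovers adenine from methylthioadenosine, rose by 0.79 in senescence (adjusted p = 3.98e-06). DCK, a deoxynucleoside kinase, fell by 0.48 in senescence (adjusted p = 0.00052) and rose by 0.42 with the hairpin (adjusted p = 0.00385), a call lost in the methods' t-test after adjustment (0.0935). HPRT1, the salvage enzyme for hypoxanthine and guanine, was not called in any comparison.

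Of 16 measured interconversion and breakdown genes, 3 rose and 3 fell in senescence (32.6% of all genes called), and 0 rose and 2 fell with the hairpin (15.7%), shares near those of all genes. Their median absolute change in senescence was 0.11, as over all genes, against 0.22 for the 9 synthesis genes. It was 0.28 for formyl group supply, 0.24 for salvage, 0.06 for PRPP supply and 0.05 for the regulators. The value over all genes includes dim genes, whereas the 9 synthesis genes all lay above the median of all probe sets. AMPD3, an AMP deaminase that makes IMP from AMP, averaged 10.21 in vector+4OHT and 8.67 in vector-4OHT cells, a 2.90-fold rise (adjusted p = 4.63e-09), and with the hairpin it fell by 0.45 (adjusted p = 0.000205). The related AMPD2 rose by 0.41 in senescence (adjusted p = 0.000112), and NT5C2, a cytosolic nucleotidase that acts on IMP, fell by 0.42 (adjusted p = 0.00012). XDH, which makes uric acid, fell by 0.31 with the hairpin (adjusted p = 0.00291) at means below the median of all probe sets.

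**Figure D4:**
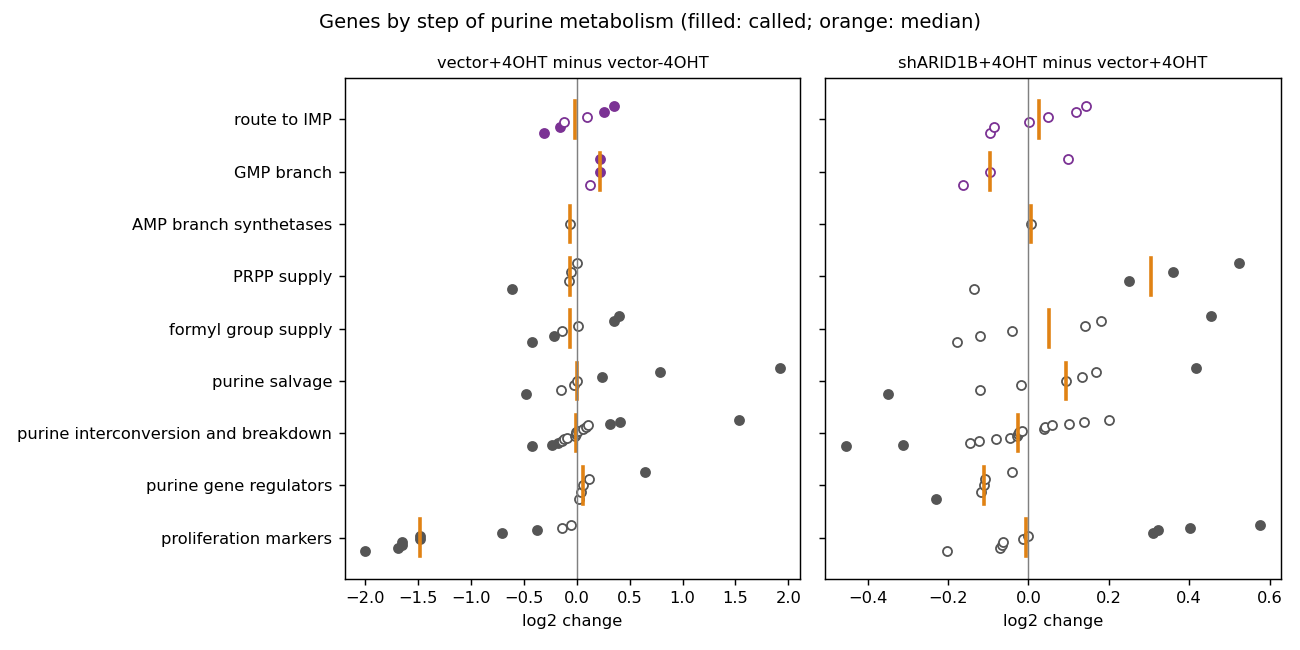
Log2 change (horizontal axes, with different ranges in the panels) of each measured gene by step of purine metabolism and of proliferation markers, in vector+4OHT minus vector-4OHT (left) and shARID1B+4OHT minus vector+4OHT (right). Each point is a gene, filled where called, purple for the 9 synthesis genes and grey for others, and orange lines are list medians; the 9 synthesis genes lie within 0.35 of 0 in senescence, where PNP reaches 1.92 and the proliferation markers have a median of -1.48.

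Proliferation markers moved with the same comparisons. Of 10, 8 were lower and 0 higher in vector+4OHT than in vector-4OHT cells (32.6% of all genes called), with the smallest p-values in PLK1 (-1.48, adjusted p = 2.35e-08), CCNA2 (-1.48, adjusted p = 5.05e-08) and BUB1 (-1.65, adjusted p = 3.29e-07). With the hairpin 4 were higher and 0 lower, among them PCNA (0.32, adjusted p = 0.00617), CCNA2 (0.31, adjusted p = 0.0105) and CDK1 (0.58, adjusted p = 0.0109), beside 15.7% of all genes called. CDK1 was dim, at 6.00 in shARID1B+4OHT and 5.42 in vector+4OHT cells, both below the median of all probe sets. The other 6 of the 10 markers were below 0 without a call, and the list median was -0.0067. The methods' t-test after adjustment called 0 of the markers higher (0.0905 for PCNA, 0.0531 for CCNA2 and 0.107 for CDK1). The log2 of their summed level was 11.48 to 11.57 on the shARID1B+4OHT arrays, 11.33 to 11.47 on the vector+4OHT arrays and 12.27 to 12.45 on the vector-4OHT arrays. Vector+4OHT cells, with a lower proliferation signal than vector-4OHT cells, had higher PPAT, GART, IMPDH1 and GMPS and lower PFAS and ADSL. The signal was also below vector-4OHT in shARID1B+4OHT cells. There PPAT, ATIC and GMPS were higher and PFAS and ADSL lower than in vector-4OHT cells. GART and IMPDH1 were not called in that comparison (limma adjusted p = 0.0763 and 0.501). The part of proliferation in these changes was not tested.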

How the data were processed

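RNA from IMR90 ER:RAS fibroblasts was profiled on whole-transcript arrays, 3 arrays in each of 3 groups. The values deposited by the authors are log2 expression per probe set. The submitters' processing notes name RMA, oligo and limma, whose versions are not given in the sources used here. RMA sets all arrays to a common distribution, so a shift of all genes at once would not show. The extraction text in the labels describes an Illumina stranded mRNA library kit, whereas the labelling text and probe sets are those of Affymetrix arrays.

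Of 33297 probe sets, 19460 mapped to exactly 1 symbol, 1754 to several and 12083 to none in the platform annotation, and 19429 of the first matched RefSeq (GRCh38.p14) by Entrez ID. The brightest probe set represented each of 769 genes with several, leaving 18417 genes. Groups were compared in limma 3.58.1 (R 4.3.3) with lmFit and eBayes on all 9 arrays, group as the only term, called at a Benjamini-Hochberg adjusted p under 0.05. This script was tested on simulated data. The study's methods state a two-sided Student t-test as the general test, unless stated otherwise, and the main text does not tie it to these arrays. It was run here as an alternative on the same values, under the name of the methods' t-test. Exact permutation tests used scipy 1.17.1. The number of arrays limits the precision, and the median residual SD was 0.0843. Exactly equal values on 2 arrays of a group occurred for 5 of the 9 genes (GART, ADSL, IMPDH1, IMPDH2 and GMPS) and for 27.4% of all genes.

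All 9 enzymes and ARID1B were named in the text, with up to 3 called genes of each pathway list having the smallest p in senescence and up to 3 in knockdown, and the 5 genes nearest to each mean profile. HPRT1, MAX, MYCN, ATF4, NRF1 and ADSS1 were added after their values were seen, as genes with no call in any comparison. So were the markers DCN, KRT19, CLDN4, PECAM1, TEK, EPCAM, CDH1, PTPRC and CD14. The genes and lists were chosen with earlier results of these data known. Some genes of these lists are not reported here. The alternatives were a block for the replicate number, a fit of the 6 compared arrays alone, a filter on dim genes (11945 kept), tests over all probe sets, averaging over a gene's probe sets, eBayes with an intensity trend or robust, subtraction of array medians, the t-test, and each array left out in turn.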

Additional observations from a re-analysis of the deposited data

How the results depend on the processing

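In senescence, 4 of the 9 genes were called higher and 2 lower, and leaving out single arrays gave 3 to 4 higher and 1 to 2 lower. The methods' t-test with Benjamini-Hochberg adjustment gave 0 higher (PPAT, GART, IMPDH1 and GMPS lost) and 2 lower. The fit of only the 6 arrays compared and the subtraction of array medians each gave 1 lower (PFAS lost, adjusted p = 0.054 and 0.19). In knockdown the 0 calls stayed 0 in each fit by limma, leaving out single arrays included, while the t-test gave 1 higher after adjustment and 3 higher and 2 lower unadjusted. Between shARID1B+4OHT and vector-4OHT, 3 higher and 2 lower became 2 higher and 1 lower with all probe sets and with the adjusted t-test. With array medians subtracted the counts were 4 higher and 1 lower. Leaving out single arrays gave 2 to 3 higher and 1 to 2 lower. For arrays of the same replicate number, deviations from the group means had r of 0.32, 0.079 and 0.071 between vector+4OHT and shARID1B+4OHT. Pairs with vector-4OHT gave -0.26 to -0.012. Whether replicate numbers pair the samples was not tested. With a replicate block the counts were 4 higher and 2 lower in senescence, 0 and 0 in knockdown, and 2 higher and 1 lower between shARID1B+4OHT and vector-4OHT. Array medians subtracted also added calls for ATIC (0.17, adjusted p = 0.0243) and IMPDH2 (0.19, adjusted p = 0.0118) in senescence and GART (0.23, adjusted p = 0.0284) between shARID1B+4OHT and vector-4OHT.

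Signs that turned belonged to differences that were not called. For IMPDH2 minus IMPDH1 between shARID1B+4OHT and vector-4OHT (-0.03), the value was 0.0073 without shARID1B+4OHT replicate 1 and 0.028 without vector-4OHT replicate 1, and its leave-one-out values ran from -0.078 to 0.028. With array medians subtracted, PAICS in knockdown was at -0.017 and, in senescence, PCNA at 0.016, PRPS2 at 0.070, PRPSAP1 at 0.0014 and PRPSAP2 at 0.017. When single arrays were left out, the lowest and highest values were -0.050 and 0.0081 for AMPD2, -0.070 and 0.074 for BUB1, -0.020 and 0.21 for FANCL, -0.079 and 0.029 for MTAP and -0.039 and 0.024 for PAICS in knockdown, -0.047 and 0.054 for PRPS2 in senescence, and -0.095 and 0.0096 for DCK, -0.18 and 0.039 for MAPK10 and -0.031 and 0.050 for XDH between shARID1B+4OHT and vector-4OHT. Over all genes, the adjusted t-test called 1737 higher and 2001 lower in senescence (2747 and 3249 by limma) and 826 higher and 620 lower in knockdown (1773 and 1122 by limma), and unadjusted it called 1868 lower in knockdown. Without shARID1B+4OHT replicate 2 the knockdown counts were 1108 and 693, and 746 and 698 were lower without vector+4OHT replicate 2 and shARID1B+4OHT replicate 3. The causes were not tested. No platform control for background was used, so signal over background was not assessed here.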
